A study of Mus musculus with 12 samples.

Results

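The tight junction and desmosome genes on the array were 48 genes with 77 of 41174 gene probes, in a design that names 27671 genes. They were taken by the symbol that the array gives: claudins (Cldn), occludin (Ocln), the zonula occludens proteins (Tjp), cingulin (Cgn), junctional adhesion molecule A (F11r), the Par3 and Par6 polarity proteins (Pard3, Pard6), the desmogleins and desmocollins (Dsg, Dsc), desmoplakin (Dsp), the plakophilins (Pkp), plakoglobin (Jup) and Tacstd1. The counts include members whose own values are not reported here. The rule itself uses no measured ratio, but it was chosen with earlier results of these data known. Each gene was read from the probe with the highest mean signal over both channels. Of the 48 genes, 42 passed the filter on dim probes, which asked for a spot well above background in either RNA in at least 4 of 8 tumors. Cldn16, Cldn17, Dsc1, Dsc3, Dsg1a and Dsg4 did not pass and were not tested. In both RNAs, 35 genes were well above background on all 12 arrays.

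The tested RNA came from 8 mouse mammary tumors labelled ShcA-null, and the RNA they were set against was 1 pool of NIC tumors. ShcA, the product of Shc1, is an adaptor protein between receptor tyrosine kinases and Ras. NIC mice express an activated Neu (ErbB2) receptor together with Cre recombinase from a mammary epithelial promoter, so that both RNAs come from Neu-driven tumors and the stroma of either is not a target of Cre. Strain, age and the number of animals in the pool are not given in the sources used here. Every array carried 1 tumor RNA and the pool in different dyes: tumors 1 to 8 each had a first array with the tumor in Cy5, and 4 swapped arrays, labelled tumors 1 to 4, had the tumor in Cy3. All values below are log2 ratios of tumor over pool, so that a positive value means more RNA in the tumor.

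Several facts about the arrays touch every result. The swapped array labelled tumor 2 correlated at 0.824 with the first array of tumor 3 and at 0.148 with that of tumor 2, over all genes tested. The one labelled tumor 4 correlated at 0.669 with the first array of tumor 8, against 0.258 with its own number, and the one labelled tumor 3 at 0.343 with the first array of tumor 4, against 0.136 with its own. Only the swapped array labelled tumor 1 was most like the first array of its own number (0.378). The first arrays of tumors 6 and 7 stood apart in another way, described with the plot of probe position. The Shc1 probe averaged 0.12 ± 0.65 (SD, n = 8, limma adjusted p = 0.716), and fell below -1 only on the first array of tumor 3 (-2.05) and the swapped array labelled tumor 2 (-2.22). The label ShcA-null was thus not borne out by this probe on the other 10 arrays, and whether the probe lies in the deleted part is not given. Values are therefore given for the first arrays, 1 per tumor, with the range of the swapped arrays beside them, and then as the mean over labelled tumors that was tested. Those means, their SDs and their p-values take the tumor numbers of the swapped arrays as given, which is in doubt.

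Tight junctions seal the space between epithelial cells near the apex. Claudins form the strands and set which ions pass, occludin and junctional adhesion molecules lie beside them in the membrane, and the zonula occludens proteins and cingulin tie the strands to actin. Desmosomes are spot-like contacts whose cadherins, the desmogleins and desmocollins, are linked through plakoglobin, plakophilins and desmoplakin to keratin filaments. Mammary luminal cells have both kinds of junction, and simple epithelium uses Dsg2, Dsc2 and Pkp2 where stratified epithelium uses Dsg1, Dsg3, Dsc1, Dsc3 and Pkp1.

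Of the 42 tested members 11, 4 higher and 7 lower, differed from the pool over the 8 tumors (limma, Benjamini-Hochberg adjusted p under 0.05 over all genes). Over all 20419 genes tested, 17.2% were called, 6.59% higher and 10.6% lower, with the same fit. Cldn23, Tacstd1 and Tjp3 were among the 4 members that rose, and the 7 that fell were Cldn2, Dsg1c, Dsg1b, Dsc2, Pkp2, Pard3 and Dsg2. Of the 11, 3 had a mean change of at least 2-fold, Cldn2 and Dsg1c among them, a rule that 4.74% of all genes met. The median of the 42 means was -0.03, beside -0.02 for all genes. At an unadjusted p under 0.05 there were 15 members, where 33.2% of all genes were. Without tumor 4 the fit called 6 members, among them Tjp3, Cldn2, Dsg1b, Dsg1c and Pkp2, where 9.62% of all genes were called. Median centring of the arrays in place of loess moved the median of all genes to 0.16 and of the members to 0.24. It called 8 members, 5 higher and 3 lower, where 16.4% of all genes were called, 11.6% higher and 4.74% lower, so that 71.0% of its calls over all genes were higher, against 38.4% with loess. Since the labels leave unsaid whether each tumor is from its own mouse, a p-value here covers the spread among these RNAs, which may be technical. In whole tumors, fewer cells of a type and less RNA per cell cannot be told apart.

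By family, 1 of 19 tested claudins rose and 1 fell, with a median of -0.06 (0.17 with median centring). Of 10 other tight junction and polarity members, 1 rose and 1 fell, with a median of 0.06 (0.31 with median centring). Of 11 tested desmosome members 0 rose and 5 fell, with a median of -0.45, whereas median centring left 2 lower and turned the median to 0.14. Those 2 were Dsg1b and Dsg1c, near-identical copies whose probes may read more than 1 copy, and both were among the 5. Over all genes 6.59% rose and 10.6% fell, or 11.6% and 4.74% with median centring. On the first arrays the median of the desmosome members was lowest in tumor 3 (-1.19) and tumor 1 (-0.86) and lay near 0 in tumors 2 (0.02) and 7 (0.06). The median of all genes on these arrays stayed between -0.19 and 0.03.

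**Figure D1:**
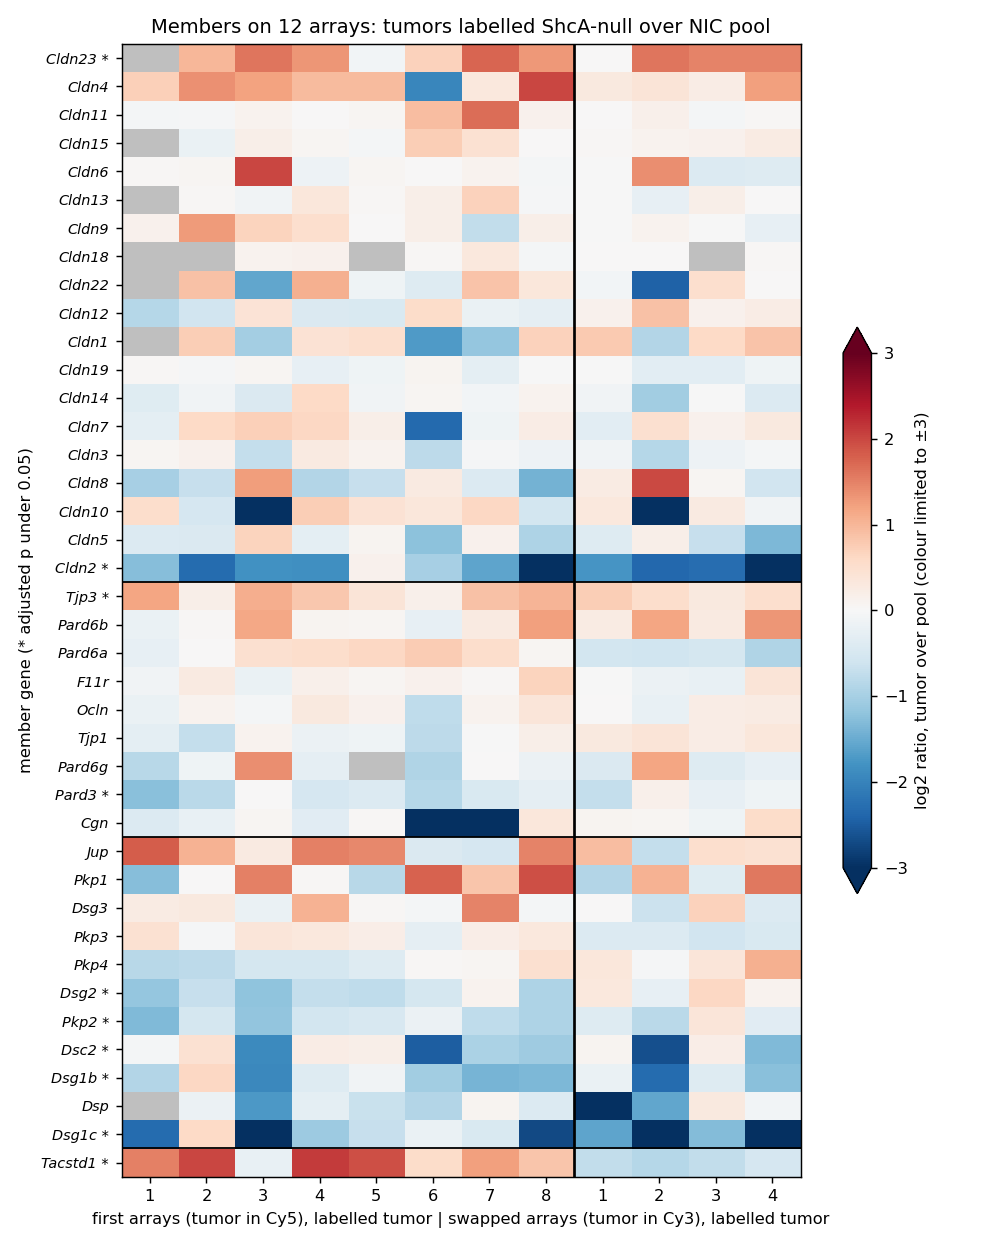
Log2 ratio of tumor over pool for 40 of the 42 tested members (rows, in 4 families, each ordered by the mean over tumors) on the 8 first arrays and the 4 swapped arrays (columns); grey marks a spot left out for an outlier flag and a star an adjusted p under 0.05. Cldn2 is blue on 11 of 12 arrays, Tjp3 is red on all 12, and the column of tumor 3 looks like that of the swapped array labelled tumor 2.

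Cldn2, a claudin that forms pores for cations and water, had the largest fall. On the first arrays its lowest log2 ratio was -3.06 (tumor 8), its median -1.69 and its highest 0.13 (tumor 5), and on the swapped arrays it lay between -4.52 and -1.76. Only tumor 5 was not below the pool. The mean was -1.82 ± 1.09 (SD, n = 8), a 3.54-fold lower level in the tumors (95% interval -2.58 to -1.06, limma adjusted p = 0.00788, two-sided exact sign-flip p = 0.0156). The fall was called in 23 of 24 other settings, and the call was lost only within the slide that held tumors 5 to 8 (-1.38, adjusted p = 0.227). On the swapped arrays alone it was -2.73.

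Cldn23, a claudin best known from intestinal epithelium, rose. Its first arrays ran from -0.08 (tumor 5) over a median of 1.30 to 1.75 (tumor 7), and the swapped arrays from 0.01 to 1.61. Tumor 5 and the swapped array labelled tumor 1 were near 0 and the other arrays with a value were at 0.70 or above. The first array of tumor 1 has no value because its spot was an outlier. The mean was 0.99 ± 0.70 (SD, n = 8, 1.98-fold, limma adjusted p = 0.0172). The call was lost without tumor 4 (0.93, adjusted p = 0.0509), on the swapped arrays alone (1.15, adjusted p = 0.0768) and within the slide of tumors 5 to 8 (0.92, adjusted p = 0.212). With a term for the dye and the swapped arrays paired to the first arrays they resembled most, Cldn23 (adjusted p = 0.0174) and Cldn2 (adjusted p = 0.0066) were the 2 members called, 1 in each direction, where 7.99% of all genes were (3.51% higher and 4.49% lower).

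The claudins that mammary epithelium is known for, Cldn3, Cldn4, Cldn7 and Cldn8, were not called. Cldn4, a barrier claudin, ran from -1.96 (tumor 6) over a median of 0.95 to 2.00 (tumor 8) on the first arrays, and from 0.21 to 1.24 on the swapped ones. It was above the pool on 11 of 12 arrays, tumor 6 being the exception. Its mean was 0.56 ± 1.14 (SD, n = 8, limma adjusted p = 0.291), and without tumor 6 it was 0.93 (adjusted p = 0.011). Cldn7, a partner of EpCAM in the basolateral membrane, had the same tumor at its low end, with -2.33 in tumor 6 and a median of 0.20 and a highest value of 0.72 (tumor 3). Its swapped arrays lay between -0.33 and 0.47 and its mean was -0.12 ± 0.94 (SD, n = 8, adjusted p = 0.801). Cldn3 ran from -0.79 (tumor 6) over 0.01 to 0.28 (tumor 4), with -0.86 to -0.06 on the swapped arrays and a mean of -0.20 ± 0.31 (SD, n = 8, adjusted p = 0.267). Tumors 3 and 6 were its low ones. Cldn8 ran from -1.43 (tumor 8) over -0.69 to 1.25 (tumor 3), with -0.58 to 1.99 on the swapped arrays. Its mean was -0.26 ± 0.73 (SD, n = 8, adjusted p = 0.46), and on the first arrays tumors 3 and 6 were above the pool and the other 6 below it.

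Cldn1, a claudin needed for the barrier of skin, split the tumors on its brightest probe. It lay at -1.71, -1.17 and -1.02 in tumors 6, 7 and 3 and between 0.44 and 0.73 in tumors 2, 4, 5 and 8, with -0.89 to 0.86 on the swapped arrays and a mean of -0.07 ± 0.93 (SD, n = 8, adjusted p = 0.884). A second Cldn1 probe with almost the same mean signal repeated this split only in part, with tumors 6 and 3 again low but not tumor 7. On the first arrays it read -0.56, 0.23 and -1.16 in tumors 6, 7 and 3, and between -0.30 and 0.14 in tumors 2, 4, 5 and 8. Cldn5, the main claudin of endothelial cells, ran from -1.23 (tumor 6) over -0.35 to 0.66 (tumor 3), with -1.35 to 0.17 on the swapped arrays and a mean of -0.42 ± 0.52 (SD, n = 8, adjusted p = 0.127). The median of 10 endothelial markers was 1.35 in tumor 3, -0.21 in tumor 6 and -0.36 in tumor 8, its lowest among the first arrays, where Cldn5 was at -0.93. None of those 10 markers was called, and their part in the values of Cldn5 was not tested.

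Cldn10, which forms ion-selective pores in ducts and kidney, had the deepest single values among the claudins. It was at -3.83 on the first array of tumor 3, and between -0.55 and 0.73 on the 7 other first arrays. Among the swapped arrays it was at -5.23 on the one labelled tumor 2, which resembled tumor 3, and between -0.12 and 0.31 on the others. The mean over labelled tumors (-0.38 ± 1.28, SD, n = 8, adjusted p = 0.523) does not show this, since it combines the low swapped array with tumor 2. Cldn22 had its low values on the same arrays (-1.55 and -2.43), while Cldn6 (1.99 and 1.41) and Cldn8 had their highest ones there. Cldn6 was dim, and well above background on only 3 arrays in the tumor RNA and 6 in the pool. Cldn10, Cldn22 and Cldn6 were singled out after their values were seen. The Cldn10 probe is shown because the Cldn10 readings rest on it alone. It is A_51_P456465, mm7 chr14:113277851-113277910 on the plus strand, and no part is in capitals:
Cldn10 A_51_P456465: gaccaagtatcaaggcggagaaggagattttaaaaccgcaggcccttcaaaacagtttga

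The remaining tested claudins were Cldn9, Cldn11, Cldn12, Cldn13, Cldn14, Cldn15, Cldn18 and Cldn19, with means between -0.12 (Cldn14) and 0.36 (Cldn11) and none called. Cldn11, a claudin of myelin and of Sertoli cells, was not well above background in the pool on any array and was above it in the tumor on 4 of 12, so it passed the filter through the tumor RNA. Its 2 highest first arrays were tumors 7 (1.68) and 6 (0.92), and the others lay between -0.05 and 0.14. Its mean was 0.36 (adjusted p = 0.239), and 0.17 without tumor 7. Of 6 markers of myelinating glia, none rose and 2 fell, Mbp among them (adjusted p = 0.0186, and 0.0496 with the dye term and the closest pairs).

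Tjp3 (ZO-3), a scaffold found in epithelial tight junctions, rose. Its first arrays ran from 0.15 (tumor 6) over a median of 0.84 to 1.18 (tumor 1), and the swapped arrays from 0.30 to 0.73. Every array was above 0. Of the 32 members measured on all 12 arrays it was the only one higher on each of them, and none was lower on each, where 2.33% and 5.08% of all genes were (7.41% together). The mean was 0.63 ± 0.31 (SD, n = 8, 1.55-fold, limma adjusted p = 0.00808, exact sign-flip p = 0.00781, the smallest that 8 tumors allow). With the dye term and the closest pairs the adjusted p was 0.0528. Tjp1 (ZO-1), a more widely expressed scaffold, was not called. It ran from -0.79 (tumor 6) over -0.15 to 0.18 (tumor 8) on the first arrays and from 0.22 to 0.39 on the swapped ones, with a mean of -0.08 ± 0.31 (SD, n = 8, adjusted p = 0.65). Tumor 6 was the lowest for both scaffolds.

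Pard3, the Par3 polarity scaffold that binds junctional adhesion molecules, fell. Its first arrays ran from -1.25 (tumor 1) over -0.48 to 0.02 (tumor 3), and the swapped arrays from -0.72 to 0.15. Tumor 3 and the swapped array labelled tumor 2 were the ones not below the pool. The mean was -0.47 ± 0.30 (SD, n = 8, 1.38-fold lower, limma adjusted p = 0.0235). The call was lost without tumor 4 (-0.49, adjusted p = 0.0529) and with median centring in place of loess (-0.17, adjusted p = 0.427). Other Pard3 probes differed from this one, with 4 further kept probes between -0.44 and 0.04 and none called. Their mean with the main probe was -0.22 (adjusted p = 0.206). Pard6b, a Par6 protein of the same complex, ran from -0.24 (tumor 6) over 0.06 to 1.24 (tumor 8) on the first arrays and from 0.24 to 1.32 on the swapped ones. Tumors 3 and 8 were high. Its mean was 0.42 ± 0.48 (SD, n = 8, adjusted p = 0.106), and 0.51 without tumor 6 (adjusted p = 0.044). Pard6a (0.14) and Pard6g (-0.13) were not called.

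Ocln, the membrane protein occludin, ran from -0.76 (tumor 6) over 0.11 to 0.37 (tumor 8), with -0.23 to 0.24 on the swapped arrays and a mean of 0.01 ± 0.35 (SD, n = 8, 95% interval -0.28 to 0.29, adjusted p = 0.98). Tumor 6 was its low one, and a second Ocln probe was less even, from -1.74 (tumor 7) and -1.62 (tumor 6) to 1.43 (tumor 5) on the first arrays. F11r, junctional adhesion molecule A, ran from -0.20 (tumor 3) over 0.10 to 0.67 (tumor 8), with -0.23 to 0.39 on the swapped arrays and a mean of 0.12 ± 0.26 (SD, n = 8, 95% interval -0.12 to 0.36, adjusted p = 0.47). With median centring F11r was 0.83 and was called (adjusted p = 0.0458). Cgn encodes cingulin, which joins the strands to actin, and its brightest probe, the most 3′ of 3, read -3.37 in tumor 6 and -3.63 in tumor 7 and between -0.42 and 0.35 on the other first arrays, with -0.12 to 0.54 on the swapped ones. The mean was -0.85 ± 1.64 (SD, n = 8, adjusted p = 0.267). The 5′-most Cgn probe was below the pool in all 8 tumors, at -1.43 ± 0.73 (SD, n = 8, adjusted p = 0.00568 over all kept probes), and the remaining one too (-0.47 ± 0.27, adjusted p = 0.0231). Cgn was called when all its probes were averaged (-0.92, adjusted p = 0.0458).

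Among the desmosomal cadherins, Dsg2, the desmoglein of simple epithelium, fell by the mean. Its first arrays ran from -1.20 (tumor 3) over -0.75 to 0.10 (tumor 7), while the swapped arrays lay between -0.25 and 0.62. The mean was -0.45 ± 0.31 (SD, n = 8, 1.36-fold lower, limma adjusted p = 0.0305). The swapped arrays alone gave 0.20 (adjusted p = 0.469) and median centring over all 12 arrays gave 0.14 (adjusted p = 0.675), so the direction of Dsg2 differed between the array sets, whose dye orientation and slide cannot be told apart, and between scalings. It was also lost on leaving out any 1 of tumors 1, 2, 3, 4, 5 and 8 (adjusted p up to 0.0704). Of 4 further kept Dsg2 probes none was called, with means between -1.05 and 0.25.

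Dsc2, the desmocollin of the same epithelia, divided the tumors rather than shifting them all. On the first arrays it was at -2.46 in tumor 6, -1.91 in tumor 3, -1.06 in tumor 8 and -0.95 in tumor 7, and between -0.05 and 0.47 in tumors 1, 2, 4 and 5. The swapped arrays lay at -2.63 (labelled tumor 2), -1.32 (labelled tumor 4), 0.07 and 0.20. The low arrays were thus tumors 3 and 8 with the swapped arrays that resembled them, and tumors 6 and 7. The mean was -0.85 ± 0.81 (SD, n = 8, 1.80-fold lower, limma adjusted p = 0.0497). The call was lost without tumor 2, 3, 4, 7 or 8 (adjusted p up to 0.104) and on the first arrays alone (-0.70, adjusted p = 0.166). Both other Dsc2 probes had means below 0, at -0.51 and -0.59, and were not called.

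Dsg1b and Dsg1c are near-identical copies of desmoglein 1, the desmoglein of skin, and since probes may read more than 1 copy their values are uncertain as to the gene. Dsg1c ran from -3.43 (tumor 3) over -0.90 to 0.61 (tumor 2) on the first arrays, and from -4.99 to -1.31 on the swapped arrays. Tumor 2 alone was above the pool. The mean was -1.60 ± 0.99 (SD, n = 8, 3.04-fold lower, limma adjusted p = 0.0089). Dsg1b ran from -1.93 (tumor 3) over -0.96 to 0.62 (tumor 2), with -2.30 to -0.20 on the swapped arrays and a mean of -0.90 ± 0.43 (SD, n = 8, 1.87-fold lower, adjusted p = 0.00518). On the first arrays alone neither passed, with adjusted p = 0.0595 for Dsg1c (-1.29) and 0.0539 for Dsg1b (-0.80). With arrays averaged over the closest pairs neither passed, with limma adjusted p = 0.0972 for Dsg1c (-1.40) and 0.0949 for Dsg1b (-0.78). The SD of Dsg1b was 0.82 over the first arrays, wider than over labelled tumors. Dsg1c and Dsg1b were lowest on the first array of tumor 3. Of 6 tested markers of epidermis none was called, and their median on that array was 0.45. Dsg3, the other tested desmoglein of stratified epithelium, had a mean of 0.24 ± 0.53 (SD, n = 8, adjusted p = 0.368) and its highest value in tumor 7 (1.5). It was dim, and well above background on only 6 arrays in the tumor RNA and 7 in the pool.

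Pkp2, a plakophilin that binds desmoplakin, fell. The first arrays ran from -1.33 (tumor 1) over -0.66 to -0.17 (tumor 6), and the swapped arrays from -0.80 to 0.36. All 8 first arrays were below the pool, and the swapped array labelled tumor 3 was above it. The mean was -0.59 ± 0.26 (SD, n = 8, 1.51-fold lower, limma adjusted p = 0.00689). With median centring it was -0.11 (adjusted p = 0.747) and with the dye term and the closest pairs -0.40 (adjusted p = 0.178). Pkp1, the plakophilin of stratified epithelium, ran from -1.28 (tumor 1) over 0.43 to 1.94 (tumor 8), with -0.87 to 1.57 on the swapped arrays and a mean of 0.56 ± 1.08 (SD, n = 8, adjusted p = 0.267). Tumors 1 and 5 were low and tumors 3, 6 and 8 high. Pkp3 ran from -0.28 (tumor 6) over 0.26 to 0.45 (tumor 1), with all 4 swapped arrays between -0.58 and -0.41 and a mean of 0.01 ± 0.22 (SD, n = 8, adjusted p = 0.959). Pkp4, an armadillo protein of desmosomes and adherens junctions, averaged -0.04 (adjusted p = 0.841).

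Jup (plakoglobin), which sits in desmosomes and adherens junctions, ran from -0.50 (tumor 7) over a median of 1.25 to 1.82 (tumor 1) on the first arrays and from -0.71 to 0.93 on the swapped ones. Tumors 6 and 7 were the only first arrays below the pool. The mean was 0.62 ± 0.83 (SD, n = 8, adjusted p = 0.131), and without both of those tumors it was 0.98 (adjusted p = 0.0132), a setting chosen after the data were seen that called 12 members, 6 in each direction, and 24.8% of all genes, 9.80% higher and 15.0% lower.

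Dsp, desmoplakin, which anchors keratin filaments to the desmosome, was far lower in 1 tumor by its brightest probe. That probe gave -4.53 on the swapped array labelled tumor 1. On the first array of that tumor all 4 Dsp spots carried an outlier flag and were left out. When kept, the brightest one read -3.51 and the others -1.37, -1.27 and 0.81, so the Dsp probes differed in size and sign there. On the brightest probe the other first arrays ran from -1.73 (tumor 3) over -0.40 to 0.09 (tumor 7), and the other swapped arrays from -1.56 to 0.29. The mean was -1.02 ± 1.46 (SD, n = 8, adjusted p = 0.145), and without tumor 1 it was -0.52 (adjusted p = 0.0447). A second probe read -3.15 on the swapped array labelled tumor 1. Another probe, 5′ of both, read -0.82 there, but -2.31 and -2.72 in tumors 6 and 7 and from 1.11 to 1.71 in tumors 2, 4, 5 and 8. These 2 further probes are shown because they disagree most in tumor 7, where the 3′ one read 0.52 (-1.47 in tumor 6). Both are on the plus strand of mm7 chromosome 13, at chr13:37614684-37614743 and chr13:37616760-37616819, with no part in capitals:
Dsp A_52_P549815: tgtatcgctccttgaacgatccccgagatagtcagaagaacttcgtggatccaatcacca
Dsp A_52_P242544: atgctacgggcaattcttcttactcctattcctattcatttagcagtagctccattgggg

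**Figure D2:**
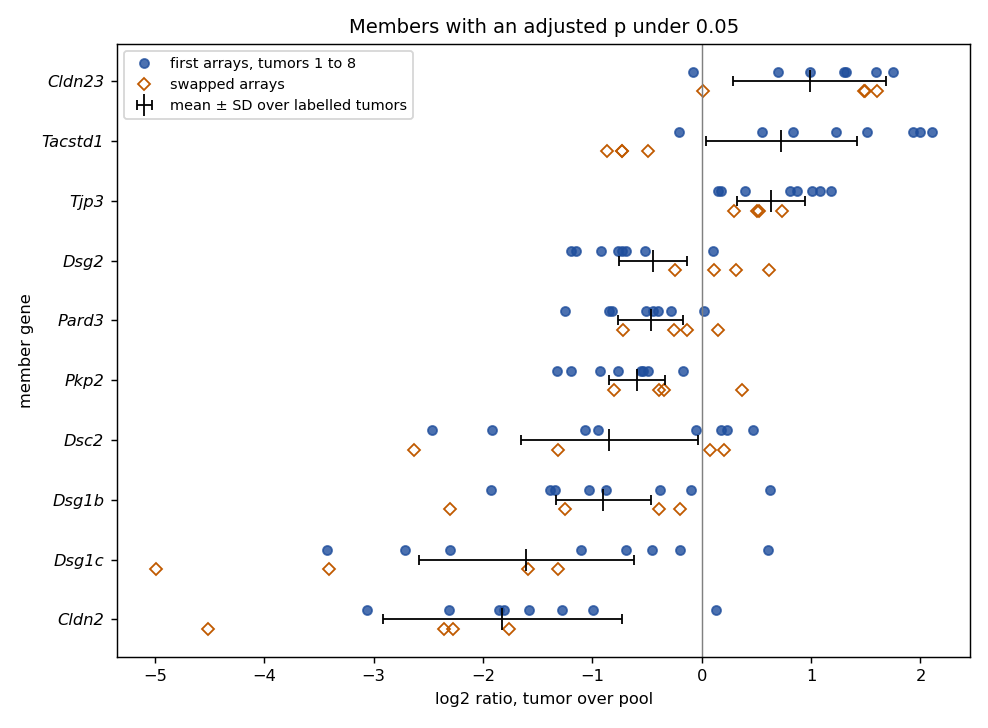
Log2 ratio of tumor over pool for 10 of the 11 members with an adjusted p under 0.05, with circles for the 8 first arrays, open diamonds for the 4 swapped arrays and a bar for the mean ± SD over labelled tumors. The diamonds of Tacstd1 lie between -0.86 and -0.50 while 7 of its 8 circles lie above 0; those of Cldn2 and Tjp3 lie on the same side as nearly all circles.

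Tacstd1 is the older symbol of Epcam, the epithelial cell adhesion molecule, which binds claudin 7 and is used as a marker of carcinoma cells. Its probe reads the part of the RNA that encodes the short cytoplasmic tail, and is shown because the first and the swapped arrays parted on it. It is at mm7 chr17:85952074-85952902 on the plus strand, a stretch longer than its 60 bases, so that they are not contiguous in the genome, and no part is in capitals:
Tacstd1 A_52_P447944: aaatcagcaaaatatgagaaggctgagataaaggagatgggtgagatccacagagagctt

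Tacstd1 ran from -0.21 (tumor 3) over a median of 1.37 to 2.10 (tumor 4) on the first arrays, but from -0.86 to -0.50 on the swapped arrays. Every swapped array was below every first array. The mean was 0.73 ± 0.69 (SD, n = 8, 1.66-fold, limma adjusted p = 0.0498). It was 1.24 on the first arrays alone (adjusted p = 0.00964) and -0.71 on the swapped arrays alone (adjusted p = 0.0365), so its direction depended on the dye orientation, which cannot be told apart from the slide. Leaving out any 1 tumor other than tumor 3 ended the call (adjusted p up to 0.111). The keratin Krt8 showed the same split, at 0.58 to 2.11 on the first arrays and -0.99 to -0.48 on the swapped ones. In 6 of 32 members measured on all arrays (Cldn3, Cldn12, Pard6a, Pkp3, Tacstd1 and Tjp1) the 4 swapped arrays all lay on the other side of 0 than the median first array, where 18.6% of all genes did, so this split was as common among all genes.

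The first arrays alone called 8 members, with Cldn23, Tacstd1 and Tjp3 among the 4 higher ones and Cldn2, Dsg2, Pard3 and Pkp2 lower, where 21.4% of all genes were called, 8.28% higher and 13.1% lower. The swapped arrays alone called 3, Cldn2, Pard6a and Tacstd1, all lower, where 8.02% of all genes were called, 4.41% higher and 3.61% lower. Within the slide of tumors 1 to 4 there were 4 calls, where 4.49% of all genes were called (Cldn23 and Cldn4 higher, Cldn2 and Dsg2 lower). Within that of tumors 5 to 8 limma called 0 members and 1.07% of all genes, and 8 members had an unadjusted p under 0.05, as did 20.9% of all genes. With the slide as a random block there were 5, among them Cldn23, Tjp3, Cldn2 and Pkp2, where 9.41% of all genes were called. Outlier spots, when kept, left the same 11 calls, where 19.9% of all genes were called.

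In tumors 6 and 7 probes at the 5′ end of a gene often read lower than those at its 3′ end. For genes with kept probes at least 1000 bases apart on the genome, the log2 ratio of the most 5′ probe was set against that of the most 3′ one. The median difference over all such genes was -0.84 on the first array of tumor 6 (5229 genes) and -0.68 on that of tumor 7 (5381 genes), and between -0.15 and 0.34 on the other 10 arrays. The difference was below -1 for 46.0% and 40.4% of the genes in tumors 6 and 7. For the 11 member genes with such probes the medians were -0.86 and -1.11, with 4 and 6 genes below -1. Pkp4 differed by -1.92 and -1.51, Dsp by -1.43 and -2.81 and Ocln by -0.86 and -1.85. In tumor 6, 5 of the 11 differences were above 0, and Cgn was above 0 in both tumors (1.10 and 0.82). A pair of further Dsg2 probes read -2.90 and -2.78 in tumor 6 and -3.27 and -3.05 in tumor 7, where the brightest probe read -0.52 and 0.10. The part of probe position in the low values of tumors 6 and 7 named above (Cgn, Cldn1, Cldn4, Cldn7, Dsc2 and Jup) was not tested.

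**Figure D3:**
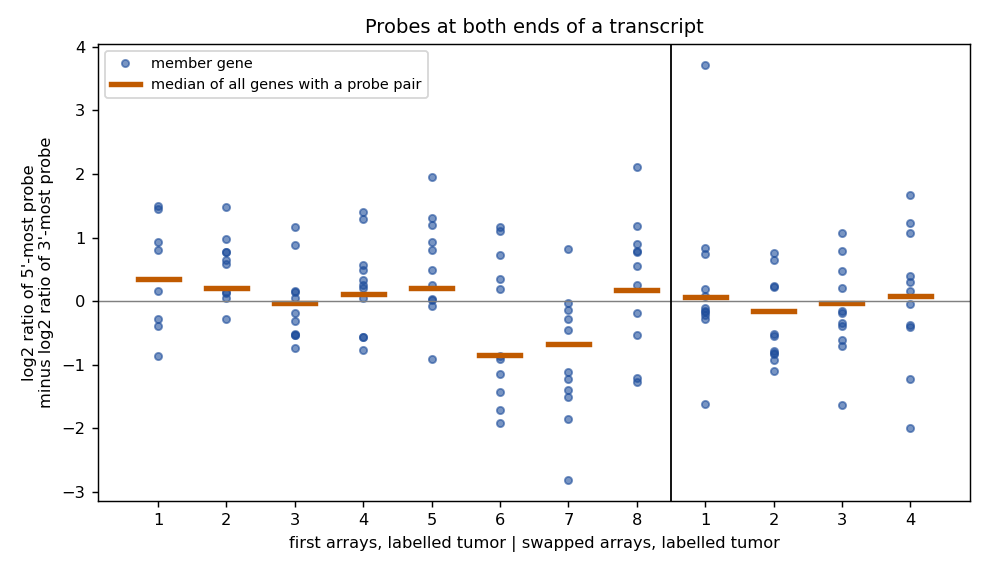
Difference between the log2 ratio (tumor over pool) of the most 5′ and the most 3′ kept probe of a gene, for up to 11 member genes (circles) and as the median of all genes with such probes (bars), on the 8 first and the 4 swapped arrays. The bars of tumors 6 and 7 lie at -0.84 and -0.68, below those of the other 10 arrays.

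Markers of other cell types were high in tumor 3. On its first array the median log2 ratio was 3.62 over 7 fibroblast markers, 4.28 over 3 skeletal muscle markers, 2.64 over 9 basal and myoepithelial markers, 1.95 over 6 leukocyte markers and 1.35 over 10 endothelial markers. On the swapped array labelled tumor 2 the same medians were 2.87, 3.22, 1.68, 1.86 and 0.75. On the other first arrays the fibroblast median lay between -1.43 and 0.62, and the muscle median reached 2.33 in tumor 2. The 10 luminal markers, all of which passed the filter, had medians of 0.59 and 0.32 on those arrays and between -0.20 and 0.58 on the other first arrays. On the first arrays, Cldn10, Cldn22, Dsg1b, Dsg1c, Dsg2 and Tacstd1 were among the members with their lowest value in tumor 3, and Cldn5, Cldn6, Cldn7 and Cldn8 among those with their highest there. The part of these cells in those values was not tested. Over the 8 tumors no fibroblast, endothelial, adipocyte or muscle marker was called. Of the basal markers Krt5, Krt14 and Oxtr rose, and of the luminal ones Krt8 rose and Esr1 fell. None of these 5 calls held with the dye term and the closest pairs (adjusted p = 0.072 for Krt5, 0.25 for Krt14, 0.107 for Oxtr, 0.471 for Krt8 and 0.115 for Esr1).

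**Figure D4:**
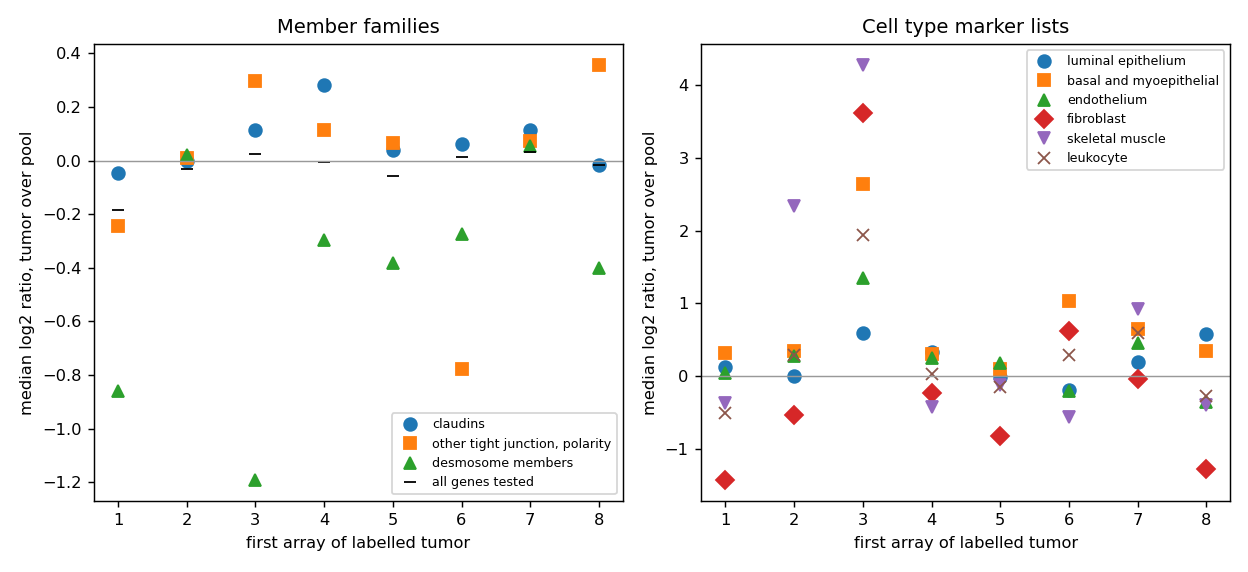
Median log2 ratio of tumor over pool on the first array of each tumor, for the member families with all genes (left) and for lists of cell type markers (right) on different scales. Desmosome members are lowest in tumor 3 (-1.19), where fibroblast (3.62) and skeletal muscle (4.28) markers are highest. Tumor 1 has the next lowest desmosome median (-0.86), with fibroblast (-1.43) and skeletal muscle (-0.375) medians below 0.

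Genes that work with the members were followed from lists of other junction genes. Over all genes 6.59% rose and 10.6% fell, and each list is to be read against that. Of 30 other tight junction and polarity genes 0 rose and 2 fell, with a median of -0.13. The 2 were Prkcz, the atypical protein kinase C that partners Par3 and Par6 (-0.59 ± 0.14, SD, n = 8, adjusted p = 0.00294), and Amot, angiomotin (-0.51 ± 0.39, SD, n = 8, adjusted p = 0.0348). Prkcz was below the pool on all 12 arrays, between -1.01 and -0.09. Of 18 adherens junction genes 1 rose and 3 fell. Cdh3, the P-cadherin of basal cells, rose (1.11 ± 0.76, SD, n = 7, adjusted p = 0.0212), but its call was lost with the dye term and the closest pairs (adjusted p = 0.0929). The nectin gene Pvrl3 (-0.76 ± 0.23, SD, n = 8, adjusted p = 0.00229) and the afadin-binding Lmo7 (-1.18 ± 0.75, adjusted p = 0.0112) and Ssx2ip (-0.64 ± 0.36, adjusted p = 0.0117) fell.

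Of 13 tested partners of desmosomes 4 rose and 0 fell, with a median of 0.34. The keratins Krt5 (1.29 ± 0.68, SD, n = 7, adjusted p = 0.00832), Krt8 (0.84 ± 0.57, SD, n = 8, adjusted p = 0.0159) and Krt14 (0.83 ± 0.63, adjusted p = 0.0232) and the galectin Lgals3 (0.63 ± 0.46, adjusted p = 0.0256) were the 4. With the dye term and the closest pairs all 4 calls were lost (adjusted p = 0.072 for Krt5, 0.471 for Krt8, 0.25 for Krt14 and 0.0524 for Lgals3), and Krt8 was below the pool on all 4 swapped arrays. Krt5 and Krt14 were highest on the first array of tumor 3 (4.00 and 3.67). Of 22 regulators of epithelial junctions 1 rose and 1 fell. Snai1, a repressor that binds the E-box CAGGTG in epithelial promoters, was above the pool on every array, from 0.19 (tumor 5) to 2.23 (tumor 6), with a mean of 1.20 ± 0.68 (SD, n = 8, adjusted p = 0.00753). Grhl1, a grainyhead-like factor known to act on Dsg1 in mouse epidermis, fell (-0.71 ± 0.36, SD, n = 8, adjusted p = 0.00781), and its call was lost with the dye term and the closest pairs (adjusted p = 0.171). All of its first arrays were below the pool, between -1.78 and -0.24, and the swapped arrays ran from -0.66 to 0.63.

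The 250 bases before the start of transcription, from RefSeq on GRCm38.p6, were at hand for 29 of the 48 members. Of the members called above, Cldn23, Dsc2, Dsg1b, Dsg1c, Dsg2 and Pkp2 were among the 19 without such a window. The letters CAGGTG on either strand, read as CAGGTG or CACCTG, were in at least 1 window of 11 of the 29 (Cldn14, Cldn4, Cldn6, Cldn7, F11r, Ocln, Pard3, Pard6b, Pkp4, Tacstd1 and Tjp3). Over all genes with such a window 19.4% held them. Some genes have several starts, and counted by window the shares were 28.6% of 42 member windows and 17.2% of all. The grainyhead-like letters AACNGGTT were in windows of 2 members, Cgn and Cldn5, and of 2.00% of all genes. The windows shown are 4, of Tjp3 and Tacstd1, which rose by the mean, of Cldn2, which fell, and of Cldn4, with the E-box letters in capitals. They are the windows at chr10:81291582-81291831 (minus strand), chr17:87635729-87635978 (plus), chrX:139800558-139800807 (plus) and chr5:134946935-134947184 (minus):
Tjp3: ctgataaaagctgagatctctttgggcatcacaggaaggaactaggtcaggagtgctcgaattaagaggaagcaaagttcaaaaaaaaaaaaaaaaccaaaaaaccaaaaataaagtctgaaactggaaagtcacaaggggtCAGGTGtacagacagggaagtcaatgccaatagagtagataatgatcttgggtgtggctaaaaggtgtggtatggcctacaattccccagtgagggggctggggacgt
Tacstd1: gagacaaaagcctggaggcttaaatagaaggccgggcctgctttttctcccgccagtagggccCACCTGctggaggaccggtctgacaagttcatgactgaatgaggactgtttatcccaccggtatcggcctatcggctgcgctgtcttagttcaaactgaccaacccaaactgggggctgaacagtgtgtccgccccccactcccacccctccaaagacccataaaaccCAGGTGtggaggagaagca
Cldn2: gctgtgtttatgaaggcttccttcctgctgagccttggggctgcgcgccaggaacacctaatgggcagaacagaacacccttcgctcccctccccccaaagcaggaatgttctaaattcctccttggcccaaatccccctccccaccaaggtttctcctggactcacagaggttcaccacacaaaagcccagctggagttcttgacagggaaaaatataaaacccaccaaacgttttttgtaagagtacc
Cldn4: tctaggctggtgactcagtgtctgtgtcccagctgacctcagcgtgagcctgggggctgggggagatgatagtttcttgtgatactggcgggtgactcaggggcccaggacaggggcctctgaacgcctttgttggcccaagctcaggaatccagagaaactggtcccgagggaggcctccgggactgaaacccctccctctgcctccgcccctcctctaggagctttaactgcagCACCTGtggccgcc
The Cldn2 window held no CAGGTG, whereas a window of Pard3, which also fell, held 3 and is not shown. Whether these letters go with the direction of change was not tested. A match is a description of these letters and not a site of binding.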

How the data were processed

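The members and the gene lists were chosen with earlier results of these data known. Scanned spots were read with Feature Extraction 9.5.3.1 (Agilent), per the file headers, and the mean foreground and median background intensity of each spot were deposited without normalization. Processed signals, background-subtracted and dye-normalized per the file headers, gave the deposited log10 ratio of red over green. Deposited flags, other values of 0 or 1, mark detection, saturation and outliers. The authors also deposited a log2 value table, whose slope against the scanner ratio (0.758 to 0.797 on first arrays, -0.748 to -0.715 on swapped ones) shows it is already turned to tumor over reference; its medians (-0.0756 to 0.127) leave its scaling and centring unknown, and it was an alternative only.

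Background was corrected by normexp (offset 50) and dyes by loess in limma 3.58.1 (R 4.3.3, data.table version 1.17.8), with control spots at weight 0 and outlier spots left out (0.47% to 13.7% per array, most on the first array of tumor 1). No member spot was saturated. Arrays of one labelled tumor were averaged (n = 8), and the mean was tested against 0 by limma (lmFit and eBayes, Benjamini-Hochberg over 20419 genes, 1 probe a gene). This counts the 8 averages as separate tumors, although only the swapped array labelled tumor 1 was most like the first array of its own number. The pool counts as 1 control sample, so the spread between control tumors is left out. On simulated data (20431 genes, 8 tumors) the fit called 64 of 100 genes changed by 1 on the log2 scale, 96 of 100 changed by 2, and 11 of 20231 unchanged ones. The simulated tumors were independent, with normal noise and no effect of slide, dye, pairing or probe position. These rates therefore do not describe the real arrays. Slides (3: first arrays of tumors 1 to 4, of tumors 5 to 8, and swapped arrays) had no term in the main fit. They entered only the fit with the slide as a random block and the fits within 1 slide. Values by array were given for members with an adjusted p under 0.05 and for a fixed list of members of simple and mammary epithelium, and at most 4 called genes of a list were named; other members were singled out after their values were seen. The number of arrays limits precision. Probes were named through accession (22951), symbol (6659) or older symbol (3109) in RefSeq GRCm38.p6 names, and for 8455 the name on the array was used. A probe named 1110020A10Rik, which RefSeq places in Dsc1, is no member by name. Of the members, 33 had 1 probe and 15 several. Some members and markers are not reported here. Probe coordinates are mm7, per the file headers.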

Additional observations from a re-analysis of the deposited data

Results flagged for a closer look

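A gap test (Dixon, 95% level) over the labelled tumors set 1 tumor apart from the others in 8 of 42 members (19.0%). Were all values of equal spread, chance would set about 1 in 20 apart. That rate may not hold here, since tumors with a swapped array were averaged over arrays and the others were single arrays. Averaging can also hide an extreme array, the more so as the tumor numbers of the swapped arrays are in doubt. Over all genes the same test set 1 tumor apart in 16.1%, and in 90.2% of those the tumor was 6 or 7. Tumors 6 and 7 were among the single arrays. Tumor 6 was the low one for Cldn4 (-1.96, others 0.32 to 2.00), Cldn7 (-2.33, others -0.31 to 0.53), Ocln (-0.76, others -0.09 to 0.37) and Tjp1 (-0.79, others -0.16 to 0.18). Tumor 7 was the low one for Cldn9 (-0.75, others 0.02 to 0.69) and the high one for Cldn13 (0.69, others -0.11 to 0.18) and Dsg3 (1.5, others -0.17 to 0.32). Both high ones were dim. Cldn13 was well above background on 4 arrays in the tumor RNA and 1 in the pool, and Dsg3 on 6 and 7. Tumor 1 was the low one for Dsp (-4.53, others -0.87 to 0.09). Thus 7 of the 8 members, too, had tumor 6 or 7 apart, the tumors whose 5′ and 3′ probes differed most. The part of probe position in them was not tested.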

How the results depend on the processing

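The number of members called, 11, moved to 3 on the swapped arrays alone, 2 with a dye term and the closest pairs, 5 with the slide as a random block, 4 within the slide of tumors 1 to 4, 0 within that of tumors 5 to 8 (limma, 8 at an unadjusted p under 0.05), 6 with arrays averaged over the closest pairs (chosen after the data were seen) and 3 with the 2-fold threshold added. Leaving out each tumor gave 6 (without tumor 4) to 12 (without tumor 6). For all genes, 3503 calls became 1637, 1632, 1921, 915, 217 and 2241 in the first 6 of those settings, and 1963 (without tumor 4; 2233 without tumor 8) to 4540 on leaving out a tumor. Tacstd1 turned to -0.71 on the swapped arrays, and Dsg2 to 0.20 there and to 0.14 with median centring. Median centring added F11r (0.83, adjusted p = 0.0458), and the value table added Cldn3 (-0.48, adjusted p = 0.0238). Cldn2, Cldn23 and Tjp3 kept their call in 23, 21 and 20 of 24 other settings. The cause of these moves was not tested. The block correlation was -0.04 with pairs as labelled and 0.93 with the closest pairs. These pairs are of first and swapped arrays, whose tumor numbers are in doubt. No tumor could be paired with a control tumor, because the only control RNA was 1 pool.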
